A study of Mus musculus with 58 samples.

Results

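The photoreceptor transcription factors are 9 genes, Crx, Nrl, Nr2e3, Otx2, Thrb, Rxrg, Prdm1, Neurod1 and Esrrb, chosen by name from what is known of them and not by their values. They are 9 of the 52459 genes in the count table, and all 9 were among the 19120 genes with a median above 4 normalized counts over the libraries. Normalized counts are read counts divided by a size factor for the depth of each library. RNA depleted of ribosomal RNA was sequenced from individual mouse retinas, with 58 libraries over 6 time points. The control group held retinas of wild-type males and the diabetic group those of male littermates heterozygous for Ins2Akita, all 4 months old and kept in 12 h of light and 12 h of dark. The Ins2Akita allele is a point mutation of the insulin 2 gene. Its misfolded product leads to the loss of pancreatic beta cells and to high blood glucose. Every cell of the diabetic C57BL/6 mice carries the allele, and at this age no overt retinopathy has set in. ZT counts hours from lights on, so ZT1, ZT5 and ZT9 fell in the day and ZT13, ZT17 and ZT21 in the night, when eyes were taken under dim red light. Control retinas numbered 5, 6, 5, 5, 5 and 4 at these time points and diabetic retinas 5, 5, 5, 4, 4 and 5.

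Rods and cones are made from the same precursors, and a small set of DNA-binding proteins decides which of them a cell becomes and keeps its genes on for life. OTX2 starts the programme and CRX carries it in both cell types, binding with partners at the enhancers of opsins and of the enzymes and channels of phototransduction. NRL and its target NR2E3 commit cells to the rod fate and hold cone genes down, whereas the nuclear receptors TRβ2, a product of Thrb, and RXRγ set the choice between the cone opsins. In the adult retina most of these genes remain active, and many photoreceptor genes rise and fall over the day with the retinal clock and with light.

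The markers of rods were the most abundant of the 13 cell type lists in every library. The 6 rod markers that are not themselves members summed to between 31109 and 49040 CPM, counts scaled to the same total in each library. Cone markers summed to between 744 and 1037. Total counts ran from 7773117 to 22147398 per library, and the 9 members together took between 0.326% and 0.413% of them. Markers of lens summed to 2077, 2473 and 3262 CPM in 3 control libraries (ZT17 replicate 5, ZT21 replicate 2 and ZT1 replicate 6), whereas the medians of all groups by day and by night lay between 2.12 and 2.52. Diabetic replicate 5 of ZT13 had the lowest rod sum (31109) and cone sum (744) and the highest sum of pigment epithelium markers (362) of all libraries, and leaving it out changed no call of a member. The libraries least like the median library were control replicates 1 and 3 and diabetic replicate 3 of ZT17. In bulk tissue, fewer cells of a type and less RNA per cell cannot be told apart.

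Crx had the highest level of the 9 per exon length, and the rod factors followed it. Exon length here joined the exons of all annotated transcripts of a gene, 3160 bases for Crx and 5689 for Nrl. The order depends on these lengths. Before division by length, the fitted control means of Crx and Nrl were close, at 15617 and 15192 normalized counts. The median level in control retinas was 4808 normalized counts per kilobase of exon for Crx, 2662 for Nrl and 1971 for Nr2e3. Neurod1, a helix-loop-helix factor needed for photoreceptor upkeep, had a median of 1583 on this scale, and Esrrb, an orphan nuclear receptor known for its part in rod survival, one of 1388. Otx2 followed at 654.0 and Thrb at 262.0. The lowest were Prdm1, a zinc finger repressor that holds photoreceptor precursors away from the bipolar fate, at 63.9, and Rxrg at 41.8. Neighbours in this order whose control libraries did not overlap were Crx and Nrl, Esrrb and Otx2, Otx2 and Thrb, and Thrb and Prdm1. Those of Nrl and Nr2e3, Nr2e3 and Neurod1, Neurod1 and Esrrb, and Prdm1 and Rxrg overlapped. The order was the same in diabetic retinas, with medians from 4816 for Crx to 41.1 for Rxrg.

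**Figure D1:**
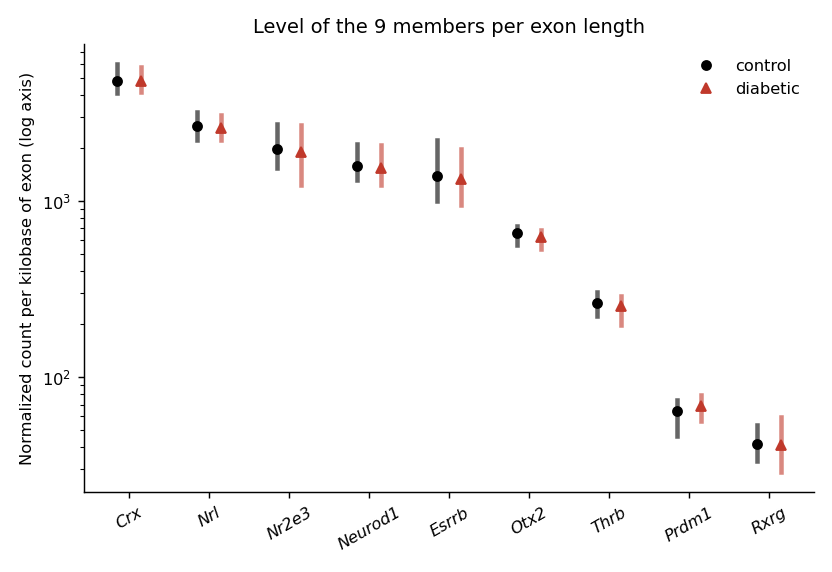
Level of the 9 members in normalized counts per kilobase of exon, on a log axis. Points are medians over 30 control and 28 diabetic libraries and bars run from the lowest to the highest library. Crx stands at the top and Rxrg at the bottom in both genotypes.

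The 9 genes lie on 7 chromosomes of GRCm38, and all are protein coding in Gencode M21. Crx spans chr7:15865947-15879968 on the minus strand, Nrl chr14:55518978-55524981 on the minus strand and Nr2e3 chr9:59942771-59960659 on the minus strand. Otx2 lies at chr14:48657677-48673819 (minus), Thrb at chr14:17660261-18038090 (plus) and Rxrg at chr1:167598384-167639623 (plus). Prdm1 lies at chr10:44437177-44528501 (minus), Neurod1 at chr2:79452521-79456751 (minus) and Esrrb at chr12:86361117-86521628 (plus). Exons of Otx2 share 154 bases with the opposite-strand gene Otx2os1 and 168 with Gm49154 on the same strand. Those of Neurod1 share 201 bases with Cerkl on the same strand and 154 with Gm26755 on the other, and those of Nr2e3 share 61 with Gm15507 on the same strand. Over all libraries Otx2os1 had a mean of 543 normalized counts, Cerkl one of 929, Gm26755 one of 13.6 and Gm15507 one of 0.838. How reads in shared bases were counted is not given in the sources used here, so the counts of Otx2 and Neurod1 are less certain than the others.

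A 24 h rhythm was called for 4 of the 9 in each genotype, Crx, Nr2e3, Thrb and Esrrb, and the 250 bases before their RefSeq starts (GRCm38.p6) are shown because these are the members with a called rhythm. Capitals mark matches to 5 short motifs searched on both strands: TAATCC, the core bound by CRX and OTX2 (GGATTA on the other strand), the E-box CACGTG of clock factors, the nuclear receptor motif AGGTCA, the D-box TTATGNAA and TGCTGA, part of the NRL element. No matches overlapped in the sequences shown.
Crx, chr7:15879956-15880205, minus strand: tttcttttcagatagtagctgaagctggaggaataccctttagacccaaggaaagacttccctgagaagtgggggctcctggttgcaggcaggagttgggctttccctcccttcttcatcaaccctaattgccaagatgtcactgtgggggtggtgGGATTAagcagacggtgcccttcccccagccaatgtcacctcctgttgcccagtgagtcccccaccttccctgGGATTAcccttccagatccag
Nr2e3, chr9:59950080-59950329, minus strand: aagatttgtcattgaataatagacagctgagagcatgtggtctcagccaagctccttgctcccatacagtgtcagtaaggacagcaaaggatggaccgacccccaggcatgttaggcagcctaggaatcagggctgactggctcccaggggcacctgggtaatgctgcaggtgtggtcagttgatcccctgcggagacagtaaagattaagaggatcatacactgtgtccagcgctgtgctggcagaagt
Thrb, first start, chr14:17660710-17660959, plus strand: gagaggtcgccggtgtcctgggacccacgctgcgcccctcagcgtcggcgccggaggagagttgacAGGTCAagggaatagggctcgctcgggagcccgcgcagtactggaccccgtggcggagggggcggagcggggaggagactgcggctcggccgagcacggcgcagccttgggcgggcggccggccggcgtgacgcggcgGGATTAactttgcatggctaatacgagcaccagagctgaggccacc
Thrb, second start, chr14:17981394-17981643, plus strand: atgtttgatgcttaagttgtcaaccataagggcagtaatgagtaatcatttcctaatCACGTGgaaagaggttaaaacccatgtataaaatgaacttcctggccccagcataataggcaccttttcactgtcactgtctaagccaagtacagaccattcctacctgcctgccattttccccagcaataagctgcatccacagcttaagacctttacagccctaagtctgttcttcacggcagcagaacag
Esrrb, first start, chr12:86360867-86361116, plus strand: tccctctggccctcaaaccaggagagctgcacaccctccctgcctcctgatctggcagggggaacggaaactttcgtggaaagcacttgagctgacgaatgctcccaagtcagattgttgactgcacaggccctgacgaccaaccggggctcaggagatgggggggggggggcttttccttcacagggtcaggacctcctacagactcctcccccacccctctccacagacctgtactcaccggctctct
Esrrb, second start, chr12:86421394-86421643, plus strand: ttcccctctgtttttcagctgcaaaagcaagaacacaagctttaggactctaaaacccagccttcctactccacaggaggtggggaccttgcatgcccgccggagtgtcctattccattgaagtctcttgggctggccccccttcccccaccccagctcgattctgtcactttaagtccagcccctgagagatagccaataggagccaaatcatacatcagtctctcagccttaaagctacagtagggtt

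The Crx window held 2 copies of GGATTA, at 94 to 89 and at 21 to 16 bases before the start. TAATCC in either orientation stood in 6.252% of the 32851 mouse promoter windows of the same length. In Thrb, the first start had an AGGTCA at 184 to 179 and a GGATTA at 46 to 41 bases before it. Its second start had a CACGTG at 193 to 188 bases, a motif present in 6.021% of all windows. AGGTCA stood in 14.02% of windows, TGCTGA in 16.08% and TTATGNAA in 3.068%. The windows of Nr2e3 and of both Esrrb starts held none of the 5. Among the other members, Otx2, Rxrg and Neurod1 had matches and Nrl and Prdm1 had none. A match is a run of letters and no measurement of binding.

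Rhythm was tested by fitting a cosine and a sine of 24 h for each genotype in 1 model of all 58 libraries with edgeR's quasi-likelihood test, with Benjamini-Hochberg adjustment over 19120 genes and a threshold of 0.05. In control retinas the test called 4 of the 9 members, against 12.2% of all genes. In diabetic retinas it called the same 4, against 14.3% of all genes. Without assuming a shape, the test over the 6 time points also called these 4 in each genotype, beside 9.06% of all genes in control and 10.2% in diabetic retinas. The means of Crx, Thrb and Esrrb were highest at ZT17 in both genotypes, and that of Nr2e3 was lowest there.

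**Figure D2:**
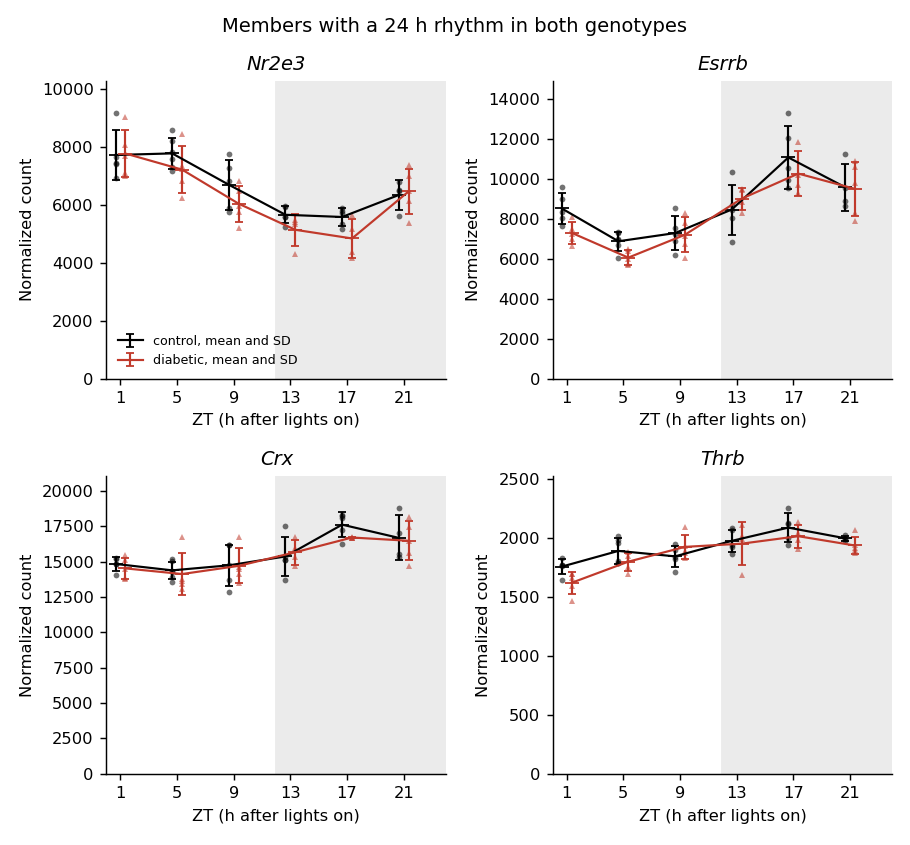
Normalized counts of Nr2e3, Esrrb, Crx and Thrb against ZT in hours. Each point is 1 retina, lines and bars give the mean and SD of 4 to 6 retinas, and the grey area is the dark phase. Nr2e3 falls from the day to ZT17 and Esrrb, Crx and Thrb peak at ZT17.

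Nr2e3, the nuclear receptor that acts under NRL in rods, was the only one of the 4 with its peak in the day. Control retinas held 6947, 7435, 7429, 7639.6 and 9179 normalized counts of Nr2e3 at ZT1, 7186 to 8580.5 with a median of 7707 (n = 6) at ZT5, and 5886, 6820.4, 5761, 7745 and 7277 at ZT9. At night they held 5947, 5251, 5585, 5935 and 5581 at ZT13, 5795, 5158, 5907, 5727 and 5333 at ZT17, and 6499.5, 6778, 5616 and 6478 at ZT21. All libraries of ZT13 and ZT17 lay below all those of ZT1 and ZT5. In diabetic retinas the counts were 7674, 6983, 7116, 8085 and 9022 at ZT1, 7334, 6836, 7253, 8449 and 6227 at ZT5, and 5742, 6821, 6478, 5952 and 5212 at ZT9. They were 5491, 5415, 5345 and 4310.0 at ZT13, 5640.2, 5175, 4381 and 4171 at ZT17, and 6984, 6130.3, 7370.0, 6484 and 5374 at ZT21. Here too no library of ZT13 or ZT17 reached the lowest of ZT1 or ZT5. The control mean was highest at ZT5, at 7781 ± 538 (SD, n = 6), and lowest at ZT17, at 5584 ± 322 (n = 5). In diabetic retinas the mean fell from 7776 ± 825 (n = 5) at ZT1 to 4842 ± 686 (n = 4) at ZT17. The highest mean was 1.39 times the lowest in control and 1.61 times in diabetic retinas. Its rhythm had an adjusted p of 2.08e-07 in control and 3.73e-09 in diabetic retinas.

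Esrrb, an orphan receptor like Nr2e3, had its high values in the night. Control retinas held 9025, 8352, 8051, 9579.6 and 7633 normalized counts of Esrrb at ZT1, 6041 to 7329.9 with a median of 6966 (n = 6) at ZT5, and 6894, 7555, 6212, 8569.7 and 7228 at ZT9. After lights off the counts were 8695, 6868, 8029.7, 10334 and 8431 at ZT13, 12076, 9531, 13314, 9944 and 10544 at ZT17, and 8881, 8671, 9554 and 11272 at ZT21. The ZT17 libraries all lay above those of ZT5 and ZT9, and overlapped those of ZT1, ZT13 and ZT21. Diabetic retinas had 7249.5, 6659, 7503, 8107 and 7006 at ZT1, 5704, 6505, 6396, 5721 and 5984 at ZT5, and 7817, 6752, 8299.6, 7132 and 6044 at ZT9. Their night libraries had 8826, 8309.7, 9433 and 9497 at ZT13, 9716, 11875, 9281 and 10225 at ZT17, and 10602, 7912, 10916, 9811 and 8305 at ZT21. In diabetic retinas the 4 libraries of ZT17 and the 4 of ZT13 all lay above every day library. The mean rose from 6882 ± 475 (SD, n = 6) at ZT5 to 11082 ± 1578 (n = 5) at ZT17 in control, and from 6062 ± 374 (n = 5) to 10274 ± 1135 (n = 4) in diabetic retinas, 1.61 and 1.69 times. The rhythm had an adjusted p of 4.90e-08 in control and 3.67e-09 in diabetic retinas.

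Crx, the homeobox factor common to rods and cones, had its highest means at ZT17, ZT21 and ZT13, in that order, in both genotypes. Control retinas held 14823, 14083, 14807, 15219 and 15283 normalized counts of Crx at ZT1, 13586 to 15170.0 with a median of 14315 (n = 6) at ZT5, and 13729.8, 14779, 12861, 16169 and 16169 at ZT9. Night libraries of controls held 15356, 13722, 15111, 17518 and 15152 at ZT13, 18233, 16264, 18327, 17215 and 18063 at ZT17, and 15329.9, 15574, 17046 and 18789.9 at ZT21. All 5 at ZT17 lay above the 16 day libraries and overlapped those of ZT13 and ZT21. Diabetic day libraries held 13832, 13784, 14458, 15457 and 15105 at ZT1, 13632, 13418, 13804, 16721 and 13063 at ZT5, and 14614, 13462, 14162, 16779.6 and 14512 at ZT9. For the diabetic night the counts were 15335, 14674, 16745 and 15934 at ZT13, 16685, 16679, 16775 and 16698 at ZT17, and 17476, 14680.4, 18143, 16473 and 15628 at ZT21. The ZT17 libraries lay close together, and replicate 4 of ZT5 and of ZT9 reached their level. The ratio of the highest to the lowest mean was 1.22 in control against 1.18 in diabetic retinas. The rhythm had an adjusted p of 7.06e-04 in control and 0.00385 in diabetic retinas. Without all ZT17 libraries these values were 0.171 and 0.0540. Over the 6 time points without a shape Crx had an adjusted p of 0.00577 in control against 0.0409 in diabetic retinas. The latter stayed under 0.05 in 42 of the 58 fits that left out 1 library. The 16 fits that lost it each left out 1 of the 28 diabetic libraries.

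Thrb, the thyroid hormone receptor gene whose TRβ2 product is needed for the medium-wavelength cone opsin, had its lowest mean at ZT1 in both genotypes. Counts per gene do not tell TRβ2 from its other product. Control retinas held 1769, 1772, 1825, 1645 and 1759 normalized counts of Thrb at ZT1, 1782 to 2012 with a median of 1881 (n = 6) at ZT5, and 1709, 1947, 1816, 1834 and 1899 at ZT9. At night the controls had 2063, 1939, 2080.0, 1917 and 1860.2 at ZT13, 2111, 2249, 1993, 1940.5 and 2127 at ZT17, and 1990.5, 1972, 1989.9 and 2025 at ZT21. Every night library of the controls lay above every ZT1 library. Diabetic retinas held 1654, 1691, 1587, 1689 and 1465 at ZT1, 1693, 1845, 1809, 1882 and 1751 at ZT5, and 1887, 1873, 2087, 1831 and 1927 at ZT9. In the diabetic dark phase there were 1984, 2107, 2015 and 1686 at ZT13, 2036, 1899, 1981 and 2130.4 at ZT17, and 2060.2, 1909, 1894, 1867 and 1934 at ZT21. All 5 diabetic libraries of ZT1 lay below all of ZT5, ZT9, ZT17 and ZT21, and 1 library of ZT13, replicate 5, fell to their level. The highest mean was 1.19 times the lowest in control and 1.24 times in diabetic retinas. The rhythm had an adjusted p of 0.0193 in control and 0.00115 in diabetic retinas. Without control replicate 2 of ZT17 the control value was 0.0572, and without all ZT17 libraries it was 0.346. It was 0.0585 without the 3 control libraries rich in lens markers and 0.0750 with the pigment epithelium level in the model. Without all ZT1 libraries the diabetic value was 0.115.

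The fitted cosines placed Crx and Esrrb together in the middle of the night and Nr2e3 in the early day. The relative amplitude is the fitted amplitude in percent of the mean, and the acrophase is the ZT of the fitted peak, each ± SE over 30 control or 28 diabetic libraries. Nr2e3 had a relative amplitude of 18.7 ± 2.23% and an acrophase of ZT3.40 ± 0.475 h in control, and 23.4 ± 3.18% and ZT2.47 ± 0.486 h in diabetic retinas. For Esrrb they were 22.3 ± 3.21% at ZT18.4 ± 0.559 h and 25.3 ± 2.73% at ZT17.3 ± 0.404 h. Crx reached 9.80 ± 1.84% at ZT18.0 ± 0.739 h in control and 8.89 ± 1.87% at ZT17.5 ± 0.795 h in diabetic retinas. Thrb reached 6.38 ± 1.41% at ZT16.4 ± 0.891 h and 8.68 ± 1.78% at ZT14.6 ± 0.757 h. The acrophase was earlier in diabetic retinas for all 4. Diabetic minus control it differed by -0.57 h for Crx, -0.93 h for Nr2e3, -1.15 h for Esrrb and -1.79 h for Thrb. Unadjusted p-values of the difference in rhythm ran from 0.113 for Esrrb to 0.85 for Crx. That test called 0% of the 19120 genes by edgeR, with 657 genes and none of the 9 members at an unadjusted p under 0.05. Sampling every 4 h limits how closely a peak can be placed.

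**Figure D3:**
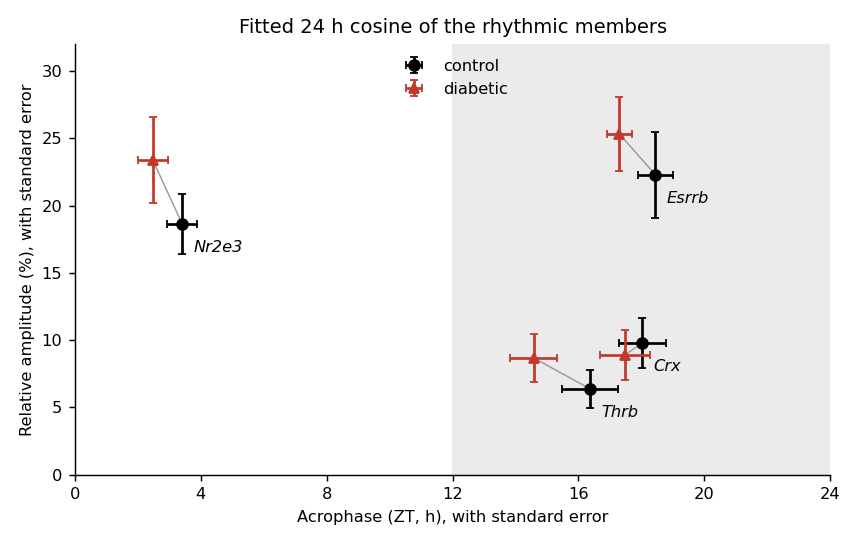
Acrophase in ZT hours against relative amplitude in percent for the 4 rhythmic members, with standard errors. Grey lines join control and diabetic retinas of the same gene and the grey area is the dark phase. Esrrb, Crx and Thrb lie between ZT14.6 and ZT18.4 and Nr2e3 lies between ZT2.47 and ZT3.40.

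The mean of the 3 night time points minus that of the 3 day time points gave the same split. In control retinas Esrrb was higher at night by 0.35 ± 0.056 (log2, SE, adjusted p = 9.97e-06), Crx by 0.17 ± 0.039 (0.00235) and Thrb by 0.14 ± 0.030 (0.00132), 3 of 9 members against 3.91% of all genes. Nr2e3 fell by 0.34 ± 0.052 (adjusted p = 6.16e-06), 1 of 9 against 4.10% of all genes. In diabetic retinas Esrrb was higher at night by 0.48 ± 0.057 (adjusted p = 1.36e-08), Crx by 0.17 ± 0.040 (0.00262), Thrb by 0.14 ± 0.031 (9.73e-04) and Rxrg by 0.26 ± 0.077 (0.0164), 4 of 9 against 6.54% of all genes. Of these calls, that of Thrb was lost without ZT1 (adjusted p = 0.155) and that of Rxrg without ZT9 (0.0626) or ZT21 (0.0699). Nr2e3 fell by 0.36 ± 0.054 (adjusted p = 1.71e-06), and 7.72% of all genes were lower at night in diabetic retinas. The difference between genotypes in the night minus day change was called for 0% of genes, with 642 genes and none of the members at an unadjusted p under 0.05. For Esrrb that difference was 0.13 with a 95% interval from -0.03 to 0.29, and for Rxrg 0.09 with an interval from -0.12 to 0.31.

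The medians of summed markers of other cells also shifted between day and night, by unequal amounts. The 9 pigment epithelium markers summed to a median of 117 CPM by day (35.3 to 234) and 207 by night (66.6 to 342) in control retinas. In diabetic retinas they summed to 81.8 by day (31.6 to 195) and 214 by night (101 to 362). All of them but Best1, at 0 in 1 library, were detected in every library, so some pigment epithelium RNA was present throughout. The 8 bipolar markers beside Otx2 had medians of 1599 by day and 1736 by night in control and of 1497 and 1675 in diabetic retinas, and the 8 markers of Muller glia medians of 3761 and 4073 in control and of 3770.0 and 3989 in diabetic retinas. Ganglion cell markers went from 609 by day to 629 by night in control and from 621 to 688 in diabetic retinas, and those of endothelium from 239.6 to 214 and from 232 to 224. Amacrine markers moved little, from 1014 to 1006 in control and from 1009 to 999.6 in diabetic retinas. Those of horizontal cells went from 78.6 to 82.8 and from 83.4 to 83.7. With the pigment epithelium level as a term in the model, the night minus day change of Nr2e3 and of Esrrb stayed past the threshold in both genotypes, whereas in diabetic retinas Crx (0.19 on the log2 scale, adjusted p = 0.0741), Thrb (0.11, 0.238) and Rxrg (0.20, 0.447) did not. The rhythm of Thrb in control (adjusted p = 0.0750) and that of Crx in diabetic retinas (0.0511) also missed it. So did, over the 6 time points, Thrb in control (0.0541) and Crx in diabetic retinas (0.212). The pigment epithelium level itself differed between day and night, so the term overlaps with time of day in the model and weakens these tests. A call lost with the term need not mean a smaller change. Without the term the diabetic night minus day differences of Crx, Thrb and Rxrg were 0.17, 0.14 and 0.26. The part of these other cells was not tested.

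No rhythm was called for Rxrg, Nrl, Otx2, Prdm1 or Neurod1. Rxrg, which with TRβ2 represses the short-wavelength opsin in cones, came nearest to the threshold in both genotypes, with an adjusted p of 0.0945 in control and 0.0903 in diabetic retinas. Its counts were low, from 77.2 to 123.6 in control and from 66.7 to 137.1 in diabetic libraries. The means were highest at ZT21 in both genotypes, at 110.5 ± 10.9 (SD, n = 4) in control and 109.0 ± 17.3 (n = 5) in diabetic retinas, and the relative amplitudes were 10.8 ± 2.98% and 11.4 ± 4.25%. Diabetic replicate 1 of ZT1, with 117.3 counts where the other 4 had 66.7 to 88.6, stood inside the night range. Without it the diabetic rhythm had an adjusted p of 0.0484. Without diabetic replicate 3 of ZT17 the night minus day change of Rxrg in diabetic retinas had one of 0.0583. A rank test modelled on the study's rhythm test, with an unadjusted p and a minimum fold of the highest over the lowest library, called Rxrg beside the other 4 members in both genotypes, where it called 21.8% of all genes in control and 23.9% in diabetic retinas.

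Nrl, the leucine zipper factor that commits cells to the rod fate, had overlapping time points. Its control means ran from 14382 ± 689 (SD, n = 6) at ZT5 to 16163 ± 1378 (n = 5) at ZT1, and its diabetic means from 14100 ± 1306 (n = 4) at ZT13 to 15533 ± 1048 (n = 5) at ZT9. The rhythm of Nrl had an adjusted p of 0.345 in control retinas and its relative amplitude was 4.67 ± 1.93%, against 3.09 ± 2.51% in diabetic retinas. Neurod1 had a relative amplitude of 7.44 ± 2.43% in control (adjusted p = 0.160) and 0.864 ± 3.53% in diabetic retinas, with control means from 4085 ± 336 (n = 6) at ZT5 to 4894 ± 610 (n = 5) at ZT17. Its diabetic means lay between 4098 ± 285 (n = 5) at ZT21 and 4505 ± 857 (n = 4) at ZT17. Otx2 had control means from 2597 ± 178 (n = 6) at ZT5 to 2870.4 ± 137 (n = 5) at ZT17 and an adjusted p of 0.420. Prdm1 had control means from 326.6 ± 44.3 (n = 6) to 368.4 ± 26.0 (n = 5) and an adjusted p of 0.746. The highest and the lowest time point overlapped for each of these 4 in both genotypes.

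**Figure D4:**
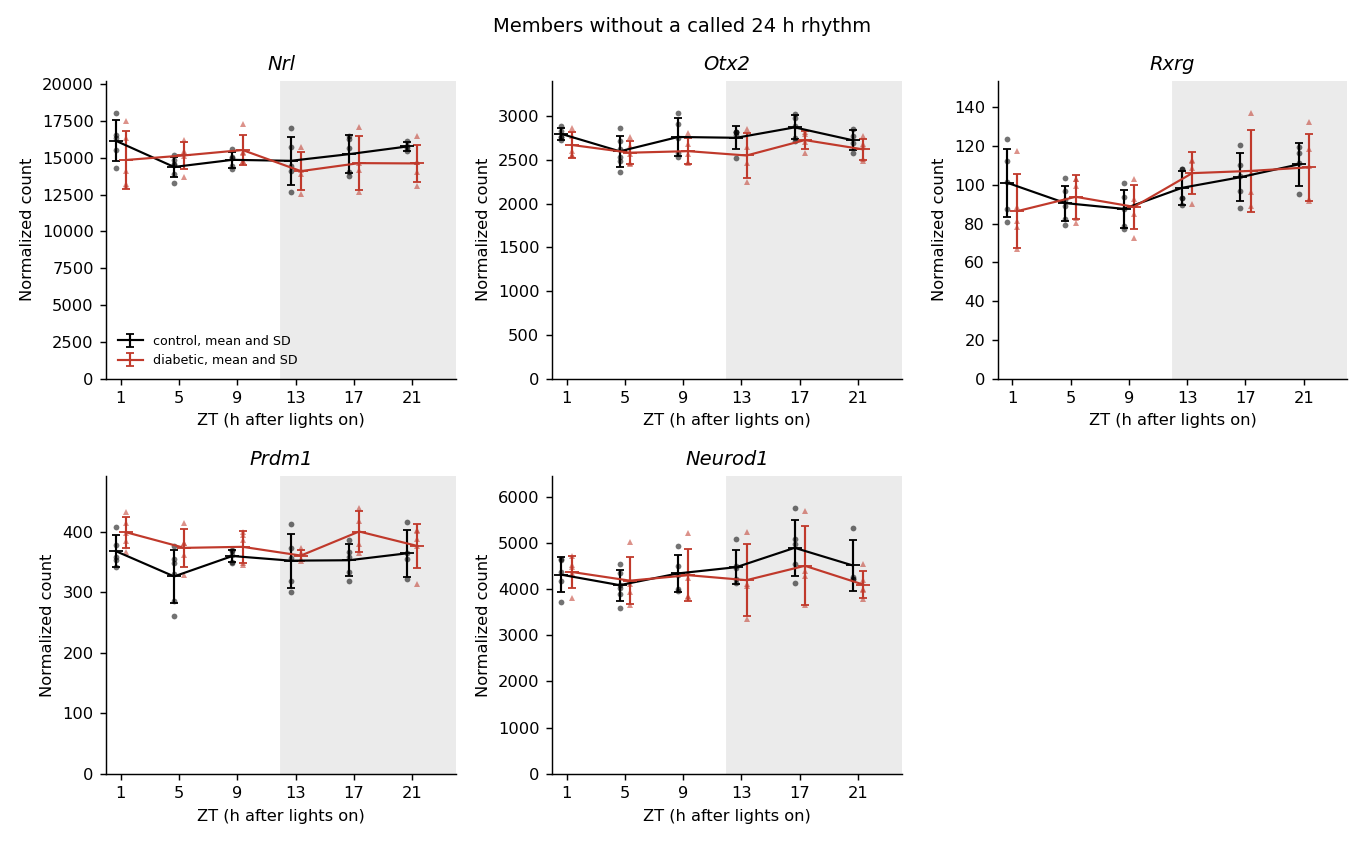
Normalized counts of Nrl, Otx2, Rxrg, Prdm1 and Neurod1 against ZT in hours, with 1 point per retina and the mean and SD of each group. The highest and lowest time points overlap for each of the 5 in both genotypes.

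Diabetic and control retinas were compared over all time points by the mean of the 6 differences. None of the 9 members was called, against 4.64% of all genes (888 of 19120), and 3 members had an unadjusted p under 0.05, as had 3387 of all genes. Prdm1 came nearest, and it was the 1 member whose difference was positive. Control libraries held 260.6 to 416.5 normalized counts of Prdm1 and diabetic libraries 314.1 to 439.6, and the diabetic mean was the higher at all 6 time points. The difference was 0.11 ± 0.034 (log2, SE), with a 95% interval from 0.04 to 0.18 and an adjusted p of 0.0600. Otx2, with 2365 to 3036 counts in control and 2245 to 2849.7 in diabetic libraries, differed by -0.07 ± 0.023, with an interval from -0.11 to -0.02 and an adjusted p of 0.0823. Its diabetic mean was the lower at all 6 time points. Nr2e3 differed by -0.09 ± 0.037 with an interval from -0.17 to -0.02 and an adjusted p of 0.150. Prdm1 was past the threshold with DESeq2's test, with a correction for GC content and length, and in 9 of the 58 fits that left out 1 library. Otx2 was past it with a term for the replicate number in the model (adjusted p = 0.0348) and without diabetic replicate 4 of ZT13 (0.0377).

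For the other 6 the intervals included 0. Esrrb differed by -0.08 (interval -0.16 to 0.0044), Neurod1 by -0.05 (-0.14 to 0.03) and Thrb by -0.04 (-0.08 to 0.0035). For Nrl the difference was -0.04 (-0.10 to 0.03), for Crx -0.02 (-0.08 to 0.03) and for Rxrg -0.0068 (-0.11 to 0.10). The median difference over the 9 was -0.04, beside 0.0018 over all genes tested. At single time points none of the 54 comparisons of members was called, where 0.0105% of all genes were called at ZT1, 0.0209% at ZT5, 0.00523% at ZT9, 0.167% at ZT17 and 0% at ZT13 and ZT21, by edgeR. An unadjusted p under 0.05 was found for 1051, 1175, 859, 852, 1686 and 892 of all genes from ZT1 to ZT21. Esrrb at ZT1 and ZT5, Thrb at ZT1, Nr2e3 at ZT17 and Prdm1 at ZT5 and ZT17 had an unadjusted p under 0.05 with adjusted p-values of 0.508 or more.

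**Figure D5:**
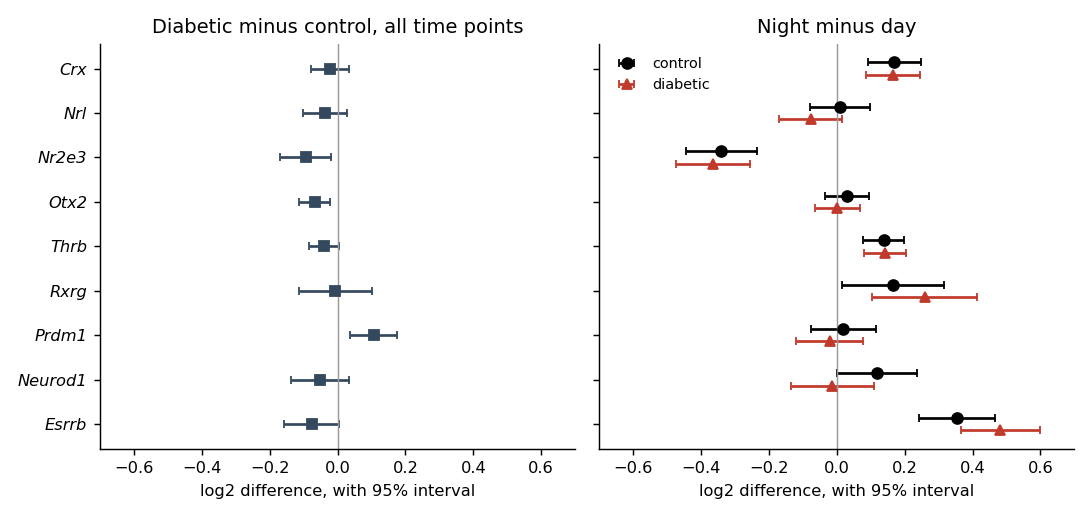
Log2 differences with 95% intervals for the 9 members, diabetic minus control over all time points on the left and night minus day in each genotype on the right. On the left all points lie between -0.09 and 0.11, and on the right Esrrb stands highest and Nr2e3 lowest in both genotypes.

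Some of the genes that these factors are known to drive were lower in diabetic retinas. Of 20 rod target genes, all of them tested, 10 were lower over all time points and none higher, with a median difference of -0.10, where 2.25% of all genes were lower. Nxnl1, the gene of rod-derived cone viability factor, fell by 0.22 ± 0.027 (log2, SE, adjusted p = 3.82e-07). Sag, the rod arrestin, fell by 0.16 ± 0.031 (0.00107) and Gngt1, the gamma subunit of rod transducin, by 0.16 ± 0.035 (0.00308). Of 14 cone target genes 6 were lower and none higher, with a median of -0.12. Gnb3, the cone transducin beta subunit, fell by 0.17 ± 0.030 (adjusted p = 1.91e-04), Pde6h, the cone phosphodiesterase inhibitor, by 0.14 ± 0.025 (3.29e-04) and Gnat2, the cone transducin alpha subunit, by 0.12 ± 0.026 (0.00180). Of 24 other regulators of photoreceptor genes 1 was lower, Samd7, a rod silencing factor, which fell by 0.15 ± 0.034 (0.00504) over all time points, although at ZT13 its mean was 2553 ± 119 (SD, n = 4) in diabetic and 2126 ± 301 (n = 5) in control retinas. The rod marker sums had medians of 42988 by day and 41719 by night in control and of 40594 and 40516 in diabetic retinas. Those of cone markers were 950.1 and 893 in control and 893 and 870.4 in diabetic retinas. The 6 rod and 7 cone markers are all in the target lists too, so these sums are no separate measurement from the target differences. Whether the targets differed from the factors was not tested. The 10 rod and 6 cone genes became 4 and 3 without the ZT1 retinas, and 14 and 7 with the correction for GC content and length. Of the other regulators that correction called 5 as lower, and none was called with 1 group per genotype or without the retinas of ZT17 or ZT21. The count was 2 without diabetic replicate 1 or 4 or control replicate 3 of ZT17, or without control replicate 4 of ZT9.

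Rhythms were also called among the targets. Of the 20 rod targets 5 were called in control and 6 in diabetic retinas, where 12.2% and 14.3% of all genes were. Rcvrn, the calcium sensor recoverin, had its fitted peak at ZT20.1 ± 0.684 h in control, with a relative amplitude of 20.7 ± 3.84%. In diabetic retinas the fitted peak was at ZT20.3 ± 0.672 h. Both lay later than the fitted peaks of Crx and Esrrb, an order that was not tested. The highest mean of Rcvrn stood at ZT17 in both genotypes, as for Crx and Esrrb. In control Sag peaked at ZT8.67 ± 0.752 h and Guca1b, a guanylate cyclase activator, at ZT6.63 ± 0.862 h. Of the 14 cone targets 8 were called in control and 7 in diabetic retinas. The cone arrestin Arr3 had the largest swing of those named, 29.6 ± 2.89% at ZT8.77 ± 0.343 h in control and 34.2 ± 3.25% at ZT8.59 ± 0.365 h in diabetic retinas. The short-wavelength opsin Opn1sw peaked at ZT21.2 ± 0.845 h in control and the potassium channel subunit gene Kcne2 at ZT16.7 ± 0.679 h, close to Thrb. Among the 24 other regulators 7 were called in control and 8 in diabetic retinas. Casz1, a zinc finger factor, peaked at ZT18.2 ± 0.514 h with 27.1 ± 3.58%, Rorb, a nuclear receptor required for rod development, at ZT18.4 ± 0.485 h with 21.6 ± 2.71%, and Lhx4, a homeobox factor of cones and bipolar cells, at ZT19.1 ± 0.555 h with 9.73 ± 1.42%. No gene of the 3 lists was called for a difference in rhythm between genotypes. Without the ZT17 retinas the control counts of rod targets, cone targets and other regulators were 2, 4 and 4. With the correction for GC content and length 8 rod targets and 11 other regulators were called in control, and without control replicate 4 of ZT9 there were 8 rod targets. Without the ZT9 retinas 4 cone targets were called in diabetic retinas, and with the pigment epithelium term 5 other regulators.

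Patterns over the 12 groups of genotype and time point were compared by Pearson's r of mean log2 normalized counts, as a description without a test, since the genes compared were measured in the same libraries at each of the 12 points. Among the members Crx and Esrrb were most alike, with r = 0.956, and Rxrg had r = 0.806 with Crx and 0.811 with Esrrb. Otx2 and Neurod1 had r = 0.832 and Nr2e3 and Thrb r = -0.763. Nrl had its highest r among members with Otx2, at 0.476. Of all genes with a mean of at least 50 normalized counts, the closest to Crx were Acot11 (r = 0.985) and Gnaz (0.982), and the closest to Esrrb were Hk2 (0.980), the hexokinase gene, and Taok3 (0.980). Thrb was closest to Fto (0.976) and to Kcne2 (0.939), which the cone list holds. Nr2e3 was closest to Iqcg (0.937) and the iron exporter gene Slc40a1 (0.930). Rxrg was closest to Map2k1 (0.955) and Higd1a (0.954), Neurod1 to the clock gene Nr1d1 (0.936) and Tmem131 (0.919), and Prdm1 to Nr2f6 (0.929) and Ivns1abp (0.915). The closest to Otx2 were Hist1h2bc (0.927) and Tpbgl (0.915), and those to Nrl, Tor1a (0.849) and Cabp4 (0.839), were the least close of the 9.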

How the data were processed

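RNA of individual retinas was sequenced in 58 libraries (30 control, 28 diabetic). The authors aligned the reads with STAR (v2.7.4a) to GRCm38.p5 with Gencode M15 and counted them per gene with HTSeq (v0.11.1), and the deposited values are raw counts for 52459 gene symbols, neither normalized nor filtered. The strand setting of the counting is not given in the sources used here. Groups were taken from the sample titles.

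Counts were analysed in R 4.3.3 with edgeR 4.0.16. Genes with a median above 4 counts after DESeq2 (version 1.42.0) size factors were kept, 19120 in all. TMM factors and quasi-likelihood F-tests were used in 2 models of all 58 libraries: 12 groups of genotype and time point, and a mean, cosine and sine of 24 h per genotype. P-values were adjusted by Benjamini-Hochberg over all genes tested and called under 0.05. Levels, acrophases and relative amplitudes are from normalized counts with a least squares cosine. Levels per kilobase used exon lengths of Gencode M21, and the promoter windows are RefSeq's (GRCm38.p6), in which all 9 members were found. Depth, from 7773117 to 22147398 counts, leaves sampling error largest for Rxrg and Prdm1, the members with the lowest counts. The 113 pairs of replicates of a group each differed by more than sampling noise (a chi-square of 1.94 or more for each degree of freedom).

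The members, the lists and the tests were chosen with earlier results of these data known. The rule for naming genes took all members, the 3 genes of each list with the smallest adjusted p in the rhythm tests and in the genotype comparison, and the 2 genes most alike each member in pattern. The alternatives were DESeq2's size factors and test, no filter, a replicate block, a correction for GC content and length, 1 group per genotype, a rank test modelled on the study's, and each library and time point left out. After the data were seen, 3 further fits were added (without 3 control libraries rich in lens markers, without the 3 libraries least like the median, and with the pigment epithelium level as a term), as was the difference between genotypes in the night minus day change. The scripts were tested on simulated data. The study's own comparison tables were not used. The values of 1 gene are not reported here.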

Additional observations from a re-analysis of the deposited data

Results flagged for a closer look

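In 5 of the 108 groups formed by a member, a genotype and a time point, 1 retina stood apart from the others by Dixon's test, and chance alone marks about 1 group in 20. Crx had 16721.2 normalized counts in replicate 4 of diabetic ZT5, where the other 4 retinas had 13063.4 to 13803.5. Nrl had 17334.3 in replicate 3 of diabetic ZT9, against 14792.6 to 15419.8 in the others. Nr2e3 had 4310.0 in replicate 5 of diabetic ZT13, below the 5344.8 to 5490.7 of the other libraries of that group, and the same library had the lowest Otx2 (2245.1), Neurod1 (3346.6) and Thrb (1686.5) of the 4. Otx2 had 2519.7 in replicate 2 of control ZT13, below 2788.2 to 2821.4. Neurod1 had 5330.1 in replicate 4 of control ZT21, above 4219.9 to 4265.5.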

How the results depend on the processing

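Over 74 alternatives, 8667 values of single members were recomputed. Of these, 8611 stayed on their side of the threshold, 38 were no longer past it, 18 were newly past it and none that was called changed sign. Every call of Nr2e3 and Esrrb remained under all alternatives run. Without the ZT17 retinas 2 members were rhythmic in control, since Crx (adjusted p = 0.171) and Thrb (0.346) were lost, and Crx was lost in diabetic retinas too (0.0540). Without ZT1 the rhythm of Thrb in diabetic retinas had an adjusted p of 0.115. Without the 3 lens-rich control libraries the rhythm of Thrb in control had one of 0.0585. With the pigment epithelium level as a term, 2 members differed between night and day in diabetic retinas. Without the 3 libraries least like the median, Crx missed the threshold over the 6 time points in control (0.0769) and diabetic retinas (0.0683), and Rxrg missed it between night and day in diabetic retinas (0.0557). Between night and day, Crx in control was lost without ZT17 (0.156), Thrb in diabetic retinas without ZT1 (0.155) and Rxrg in diabetic retinas without ZT9 (0.0626) or ZT21 (0.0699), and Rxrg in control was called without ZT1 (0.0482). Without a filter on low counts Crx over the 6 time points in diabetic retinas had an adjusted p of 0.0529. The cause was not tested in any of these cases. Leaving out a time point also leaves fewer retinas, and the pigment epithelium level itself differed between day and night.

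Over all time points, diabetic and control retinas differed in 1 member with DESeq2's test (Prdm1, adjusted p = 0.0469), in 1 with the GC and length correction (Prdm1, 0.0468) and in 1 with the replicate block (Otx2, 0.0348). With 1 library left out the count lay between 0 and 1. Prdm1 was called without control ZT1 replicate 3, ZT5 replicate 4, ZT13 replicate 3, ZT17 replicate 5 or ZT21 replicate 4, or diabetic ZT5 replicate 5, ZT9 replicate 3, ZT17 replicate 4 or ZT21 replicate 5, with adjusted p-values from 0.0342 to 0.0499. Otx2 was called without diabetic ZT13 replicate 4 (0.0377). Crx over the 6 time points in diabetic retinas was lost when any 1 of 16 diabetic libraries was left out, with adjusted p-values from 0.0507 to 0.0859. Those libraries were replicate 2 of ZT1, replicates 1, 2, 3 and 5 of ZT5 and of ZT9, and replicates 1, 3 and 4 of ZT21 and 1, 3, 4 and 5 of ZT17. Rxrg over the 6 time points in diabetic retinas was called without diabetic ZT1 replicate 1 (0.0360).

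The replicate numbers were not taken to pair the retinas. Of 26 pairs with the same number and time point, 19 had deviations from their group means that correlated above 0.1. The correlations had a median of 0.196 and ran from -0.328 to 0.718. Of 26 control libraries 13 correlated best with their own number among the 4 or 5 diabetic libraries of their time point. By chance alone 1 in 4 or 5 would. Whether retinas of the same number shared a step of handling was not tested. Beside Otx2 the block changed no call of a member.

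Counts over all genes moved further. The 888 genes that differed between genotypes were 1519 with the GC and length correction, 572 with 1 group per genotype and 366 without ZT17. The 2337 rhythmic genes in control were 758 without ZT17, and the 2736 in diabetic retinas were 1347. For night against day, the 2728 genes in diabetic retinas were 484 with the pigment epithelium term. Control counts of 1530 went from 519 without ZT17 to 2633 without ZT13. The 1948 genes that varied over time in diabetic retinas were 3148 with the GC and length correction and 1204 with the pigment epithelium term. At ZT17 the 32 genes were 131 with the GC and length correction, 88 with DESeq2's test and 3 to 96 with 1 library left out. The rank test modelled on the study's, a new implementation whose fold is that of the highest over the lowest library, called 4172 genes in control and 4565 in diabetic retinas.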
